A study of Mus musculus and Rattus norvegicus with 30 samples.

Results

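The genes of synaptic vesicle release were followed in dorsal root ganglia (DRG) of mouse and rat after nerve injury. Members were chosen by symbol. They are the genes whose symbol consists of Syt, Stx, Vamp, Snap, Cplx or Sv2 with a number or a letter from a to c, together with Rab3a to Rab3d and Syn1 to Syn3. The rule found 57 of the 54315 features in the mouse table and 54 of the 39281 features in the rat table. The tables share 53 of them, with Stx4a and Stx5a of mouse listed as Stx4 and Stx5 in rat. Snap23, Snap25, Stx19 and Sv2b were found in the mouse table alone, and Vamp7 in the rat table alone. In both tables a further 18 symbols begin in the same way (Stxbp, Sytl, Snapc and Snapin genes) and are not members. A choice by symbol also takes in proteins outside the fusion step of release, such as SNAREs of the Golgi and endosomes and the clathrin adaptor Snap91. The results are therefore ordered by role.

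Mice of 2 inbred strains, BALB/c and B10.D2, had spared nerve injury (SNI), an operation that cuts the common peroneal and sural branches of the sciatic nerve but keeps the tibial branch, or a sham operation. L3 and L4 ganglia were taken 28 days later, and each library is from 1 animal. The mice had been bought at 4 to 8 weeks of age. For BALB/c there were 6 sham libraries (3 female, 3 male) and 4 SNI libraries (2 female, 2 male). For B10.D2 there were 5 sham libraries (2 female, 3 male) and 5 SNI libraries (3 female, 2 male). Male Wistar rats had the L5 spinal nerve transected (SNT) or a sham operation, L5 ganglia were taken after 21 days, and each of the 4 sham and 4 SNT libraries pools 3 animals. SNI leaves many neurons of the L3 and L4 ganglia uncut, whereas SNT cuts the whole spinal nerve, and the mouse libraries were ribodepleted whereas the rat libraries were polyadenylated RNA. Species, surgery, time and library kit therefore cannot be told apart, and no difference between mouse and rat was tested.

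Transmitter is released when SNARE proteins of the vesicle (the Vamp genes, or synaptobrevins) pair with SNAREs of the plasma membrane (the syntaxins, Stx, and Snap25) and pull the membranes together. Synaptotagmins (Syt) sense calcium and trigger the fusion, complexins (Cplx) bind the assembled SNAREs and hold or promote it, Rab3 GTPases bring vesicles to the membrane, synapsins (Syn) tether the reserve of vesicles, and SV2 proteins are glycoproteins of the vesicle membrane. In sensory neurons these proteins act at the central terminals in the spinal cord and in peptide secretion, while their mRNAs are made in the cell body, in the ganglion.

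Libraries held between 29.99 and 41.88 M counts each in mouse, and between 11.95 and 17.89 M in rat, where M stands for mega. Levels are given as counts per M (CPM), scaled with TMM factors. On the first principal component of all rat features (68.5% of the variance), rat sham 4 lay at -9.24 and rat SNT 1 at 1.12, whereas sham 1 to 3 lay at -59.3 to -45.7 and SNT 2 to 4 at 39.7 to 62.4. Rat results are therefore also given without both. In rat 18 of the 54 members are listed at 0 in all 8 libraries, among them Cplx1, Cplx2, Rab3a, Stx1a, Syt2, Syt4 and Vamp2. The neuron genes Tubb3, Uchl1, Rbfox3 and Nefh are also listed at 0 there, so nothing is read from these zeros. Neuron markers were otherwise high in every library, at a summed 8335 to 10318 CPM over 12 genes in mouse. Schwann cell markers reached 2739 to 5654 CPM over 8 genes in mouse and spinal cord markers 1.23 to 9.46 CPM over 7 genes. Most of the spinal cord sum was Gfap (1.03 to 9.02 CPM).

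The promoters of 5 members that were lower after SNI in both strains are shown here, because the data below turn on genes that moved together. The RefSeq promoter table used here holds 45 of the 57 mouse members, and Snap25, the other shared lower member, is not among the 45. Each line holds the 250 bases before the start, on the gene's strand and 5′ to 3′, on build GRCm38.p6. Capitals mark letters of the GC box (GGGCGG), the CCAAT box (CCAAT) and the TATA box (TATAAA), each read on both strands, which in these lines do not overlap each other.
Vamp1, chr6:125215331-125215580, plus strand: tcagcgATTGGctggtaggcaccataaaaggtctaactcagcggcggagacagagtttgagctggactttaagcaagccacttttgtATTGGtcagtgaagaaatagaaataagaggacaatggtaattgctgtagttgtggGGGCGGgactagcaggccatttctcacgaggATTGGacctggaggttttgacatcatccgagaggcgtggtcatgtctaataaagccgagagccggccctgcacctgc
Syt3, chr7:44383876-44384125, plus strand: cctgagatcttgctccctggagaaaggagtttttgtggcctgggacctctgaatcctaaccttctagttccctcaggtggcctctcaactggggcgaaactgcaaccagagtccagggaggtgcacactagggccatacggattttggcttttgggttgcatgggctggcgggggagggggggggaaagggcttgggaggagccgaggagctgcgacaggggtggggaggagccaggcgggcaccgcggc
Syt2, chr1:134646362-134646611, plus strand: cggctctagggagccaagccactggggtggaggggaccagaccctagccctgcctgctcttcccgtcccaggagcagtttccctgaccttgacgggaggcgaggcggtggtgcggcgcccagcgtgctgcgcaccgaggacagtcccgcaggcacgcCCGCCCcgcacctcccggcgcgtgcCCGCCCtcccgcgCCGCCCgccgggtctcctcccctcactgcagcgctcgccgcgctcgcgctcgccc
Sv2b, chr7:75309263-75309512, minus strand: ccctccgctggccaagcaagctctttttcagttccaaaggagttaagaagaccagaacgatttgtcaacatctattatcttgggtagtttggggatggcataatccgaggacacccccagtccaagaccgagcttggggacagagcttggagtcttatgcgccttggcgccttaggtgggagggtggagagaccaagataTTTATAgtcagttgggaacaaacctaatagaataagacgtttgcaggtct
Rab3a, chr8:70754453-70754702, plus strand: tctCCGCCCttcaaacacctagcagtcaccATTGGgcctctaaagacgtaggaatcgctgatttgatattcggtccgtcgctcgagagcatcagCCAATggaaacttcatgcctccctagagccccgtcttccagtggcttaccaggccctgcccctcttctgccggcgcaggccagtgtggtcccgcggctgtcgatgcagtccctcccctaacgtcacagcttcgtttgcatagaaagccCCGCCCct

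None of the motifs searched was common to the 5 promoters. Vamp1 held 3 CCAAT boxes and 1 GC box, Rab3a 2 of each, and Syt2 held 3 GC boxes. Sv2b held a TATA box alone, and Syt3 held none of these letters. The GC content ran from 48.8% in Sv2b to 76% in Syt2. Over the 45 members in the promoter table, 31 (68.9%) held a GC box, against 32.7% of all 32851 promoters of this length. The members' promoters were also richer in G and C, with a median of 61.2% against 52.4% over all promoters. CCAAT boxes were in 28.9% of members and 33.8% of all promoters, and TATA boxes in 6.7% and 12.4%. The AP-1 motif (TGANTCA) was in 1 member, Syt8, and in 6.7% of all promoters. The CRE motif (TGACGTCA) was in 1 member, Syn1, and in 1.5% of all promoters. None of the 5 promoters printed held either of them, which says only that these letters are not in this window.

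Between genes, levels are compared per kilobase of merged exons in mouse (CPM per kb), as means of the 2 sham groups. Complexin 1 was highest at 181 CPM per kb, followed by Syt11, a synaptotagmin that does not bind calcium, at 158 CPM per kb and by Snap25 at 148 CPM per kb. Syt4, a synaptotagmin of dense core vesicles, stood at 95.4 CPM per kb and Rab3a at 84.7 CPM per kb. These 5 genes made up 44.8% of the summed level of all members. With the longest transcript as the length, Snap25 came first at 206 CPM per kb, so the order of the first 3 depends on which exons are counted. The lowest members were Stx19, Cplx3, Cplx4 and Syt8, which were the 4 mouse members that did not pass the filter on low counts.

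**Figure D1:**
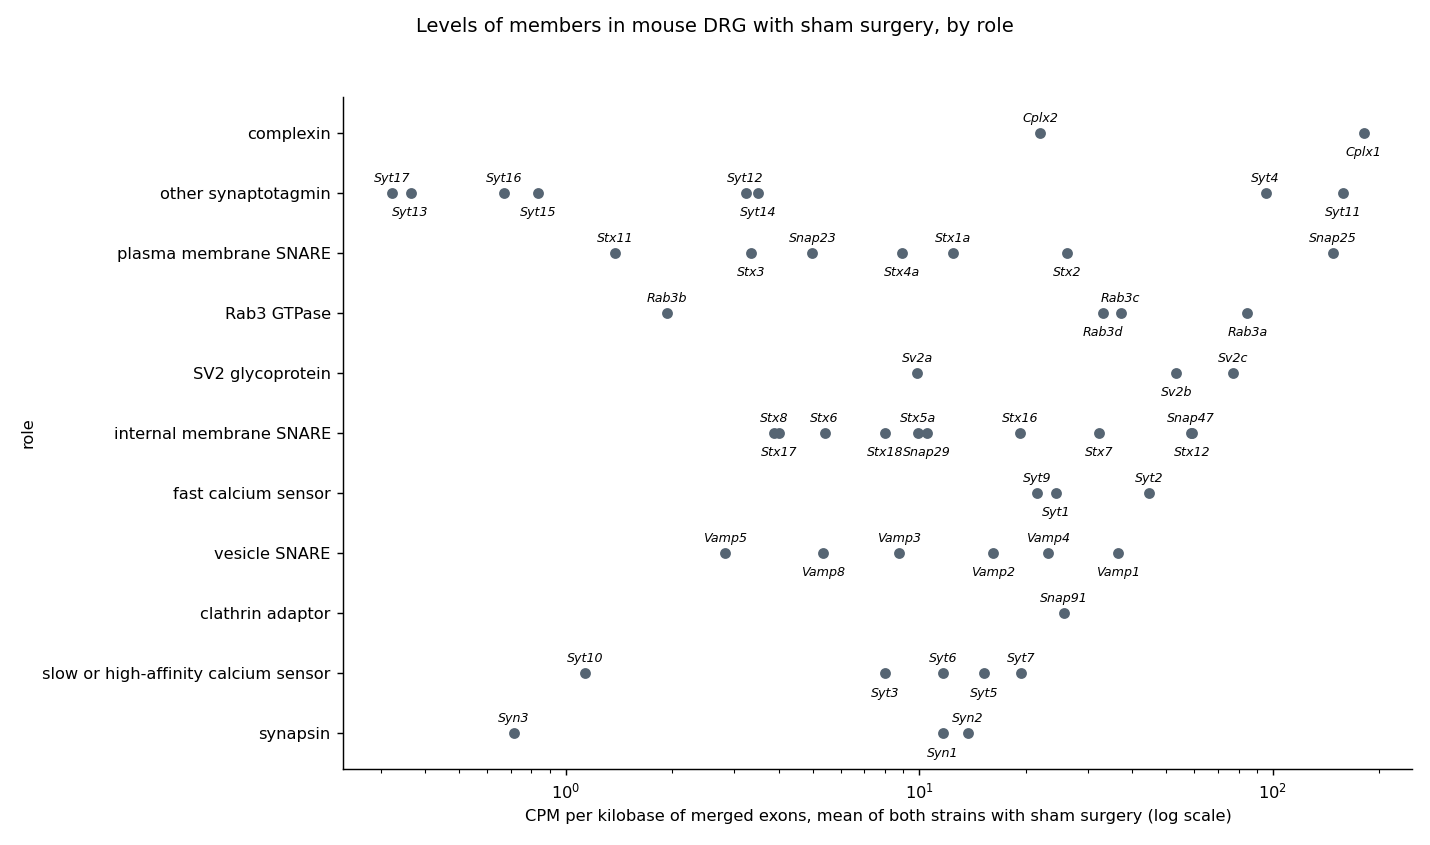
Levels of the members that passed the filter in mouse DRG with sham surgery, of which 1 is not drawn. Each point is 1 gene, the x axis is CPM per kb of merged exons on a log scale (mean of both strains) and the y axis is its role, and Cplx1, Syt11 and Snap25 stand to the right of all others at 148 to 181 CPM per kb.

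Relatives within a family stood at different levels. Among vesicle SNAREs, Vamp1, the synaptobrevin of fast motor and sensory synapses, was at 36.4 CPM per kb and Vamp2, the main synaptobrevin of the brain, at 16.1 CPM per kb. Syt2, the calcium sensor of fast hindbrain and motor synapses, was at 44.7 CPM per kb and Syt1 at 24.4 CPM per kb. Sv2c (77 CPM per kb) and Sv2b (53.3 CPM per kb) were above Sv2a (9.88 CPM per kb). Stx1a was at 12.4 CPM per kb, and all 3 synapsins were at or below 13.7 CPM per kb. With the longest transcript as the length the order of the Vamp, Syt and Sv2 genes named here was the same within each family.

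After SNI, 12 of the 53 members tested were called in BALB/c and 7 in B10.D2. A gene is called at an adjusted p under 0.05 in edgeR's quasi-likelihood test over all features. In BALB/c 3 members were higher and 9 lower. Of all features 9.69% were called, 4.82% as higher and 4.87% as lower. In B10.D2 1 member was higher and 6 lower, and of all features 4.58% were called, 2.1% as higher and 2.48% as lower. The median log2 fold change over the members was -0.04 in BALB/c and 0.01 in B10.D2, against 0.00 and 0.01 over all features. The middle of the members thus lay close to that of all features, which says nothing of their spread. All 7 members called in B10.D2 were among the 12 called in BALB/c (58.3% of those). They were Snap25, Vamp1, Syt2, Syt3, Sv2b and Rab3a, which were lower, and Syt17, which was higher. All mice were fitted in a single model and share 1 estimate of the spread.

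Snap25 (ENSMUSG00000027273, chromosome 2, 136713453 to 136782428, plus strand of mm10) supplies the plasma membrane side of the SNARE bundle. It stood at 868 to 1196 CPM with a median of 995 CPM in BALB/c sham, and at 751, 669, 675 and 704 CPM in BALB/c SNI. In B10.D2 it stood at 1053, 1091, 944, 1065 and 905 CPM in sham and at 663, 752, 748, 787 and 755 CPM in SNI. Every SNI library lay below every sham library of its strain. The log2 fold change was -0.51 ± 0.07 (SE) in BALB/c (adjusted p = 2.9e-05) and -0.43 ± 0.06 (SE) in B10.D2 (adjusted p = 0.000315). On the linear scale Snap25 fell by 29.7% and fell by 25.7%.

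Vamp1 (ENSMUSG00000030337, chromosome 6, 125215551 to 125245964, plus strand of mm10), the vesicle SNARE, showed the largest fall of all called members in BALB/c. BALB/c sham libraries held 348 to 426 CPM with a median of 372 CPM and BALB/c SNI libraries 318, 224, 225 and 236.96 CPM. B10.D2 sham libraries held 406, 386, 339, 352 and 316 CPM and B10.D2 SNI libraries 236, 241, 251, 283 and 261 CPM. The groups did not overlap in either strain, although BALB/c SNI 49 stood well above the other 3 libraries of its group. The log2 fold change was -0.60 ± 0.08 (SE) in BALB/c (adjusted p = 4.6e-05) and -0.47 ± 0.08 (SE) in B10.D2 (adjusted p = 0.00098).

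Both calcium sensors that fell, Syt2 and Syt3, bind calcium with different affinity, Syt2 being a fast sensor of low affinity and Syt3 a slow one of high affinity. Syt3 was at 22.2 to 28.6 CPM with a median of 25.3 CPM in BALB/c sham and at 19.0, 14.9, 14.1 and 18.7 CPM in BALB/c SNI. In B10.D2 it was at 28.9, 27.7, 23.5, 21.1 and 22.4 CPM in sham and at 17.1, 14.7, 17.3, 18.5 and 18.8 CPM in SNI. No SNI library reached a sham library of its strain, and the log2 fold change was -0.60 ± 0.10 (SE) in BALB/c (adjusted p = 0.000319) and -0.49 ± 0.10 (SE) in B10.D2 (adjusted p = 0.00351), the largest fall of a called member in B10.D2. 

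Syt2 was more variable among libraries. It was at 331 to 380.2 CPM with a median of 351 CPM in BALB/c sham and at 308, 243, 209 and 273 CPM in BALB/c SNI, without overlap. B10.D2 libraries held 395, 378, 322, 277 and 280.4 CPM in sham and 223, 186, 234.7, 253 and 282 CPM in SNI, and B10.D2 SNI 90 lay above the lowest sham libraries. The log2 fold change was -0.47 ± 0.10 (SE) in BALB/c (adjusted p = 0.00439) and -0.45 ± 0.10 (SE) in B10.D2 (adjusted p = 0.00856).

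Sv2b and Rab3a, both carried on the vesicle itself, fell less. Sv2b was at 425 to 495 CPM with a median of 468 CPM in BALB/c sham and at 384, 352, 345 and 369 CPM in BALB/c SNI, with a log2 fold change of -0.36 ± 0.05 (SE) (adjusted p = 7.3e-05). B10.D2 libraries held 451, 417, 418, 430.4 and 425 CPM in sham and 305, 355, 356, 383 and 345 CPM in SNI, with a log2 fold change of -0.28 ± 0.05 (SE) (adjusted p = 0.00157). The groups did not overlap in either strain. Rab3a, the most abundant of the Rab3 GTPases per length, was at 181 to 202 CPM with a median of 198 CPM in BALB/c sham and at 169.7, 159, 145.4 and 169 CPM in BALB/c SNI, with a log2 fold change of -0.29 ± 0.05 (SE) (adjusted p = 0.000222). In B10.D2 it was at 183, 189, 178, 184 and 174 CPM in sham and at 149.8, 149.9, 144.8, 173 and 159 CPM in SNI, with a log2 fold change of -0.21 ± 0.04 (SE) (adjusted p = 0.00658). Rab3a did not overlap between SNI and sham in either strain.

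Syt17 (ENSMUSG00000058420, chromosome 7, 118380717 to 118448222, minus strand of mm10), a synaptotagmin of the Golgi and early endosomes that does not bind calcium, was the only member that was higher in both strains. It is a scarce transcript, with 1.19 to 2.34 CPM with a median of 1.48 CPM in BALB/c sham against 2.85, 4.44, 2.98 and 2.78 CPM in BALB/c SNI. The B10.D2 libraries held 1.67, 2.05, 1.77, 1.65 and 1.79 CPM in sham and 4.63, 2.71, 3.93, 3.56 and 4.09 CPM in SNI. Each SNI library lay above each sham library of its strain. The level was 2.08-fold in BALB/c (log2 1.06 ± 0.18 (SE), adjusted p = 0.000633) and 2.12-fold in B10.D2 (log2 1.09 ± 0.18 (SE), adjusted p = 0.000935).

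**Figure D2:**
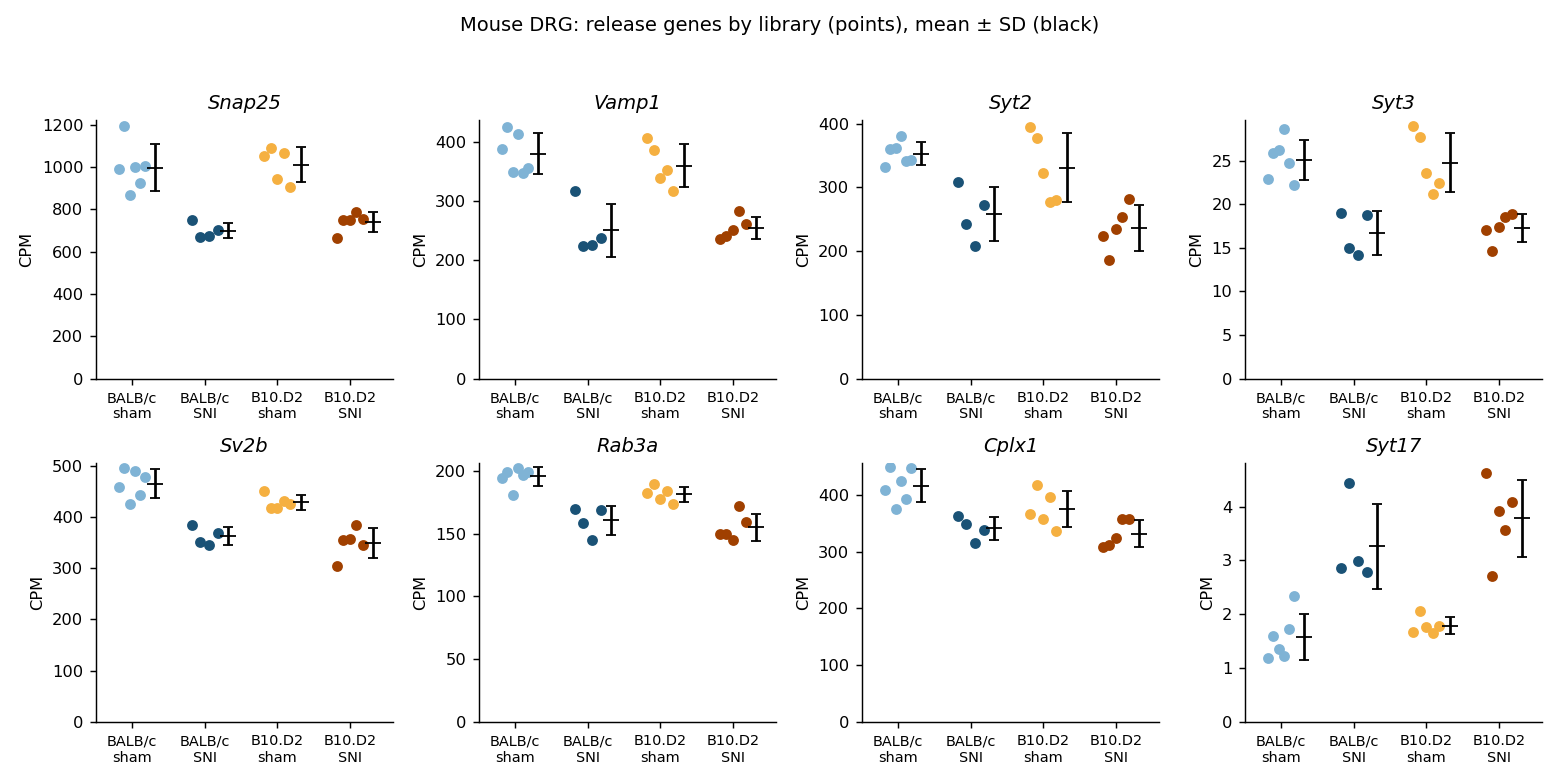
CPM of 8 members in each mouse library. Points are libraries, the black bar is the group mean ± SD (BALB/c, n = 6 sham and 4 SNI; B10.D2, n = 5 each), and 7 of the 8 panels show lower means after SNI in both strains, while Syt17 is higher in both. Cplx1 was called in BALB/c alone.

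The other 5 members called in BALB/c had smaller changes and did not pass in B10.D2. Cplx1 was at 376 to 449 CPM with a median of 417 CPM in BALB/c sham and at 363, 349, 315 and 339 CPM in BALB/c SNI, with no overlap and a log2 fold change of -0.29 ± 0.06 (SE) (adjusted p = 0.00286). In B10.D2 it was at 367, 418, 359, 396 and 337 CPM in sham and 309, 312, 324, 358 and 357 CPM in SNI, with overlap and a log2 fold change of -0.16 ± 0.06 (SE) (adjusted p = 0.134). Stx18, a SNARE of the endoplasmic reticulum, had log2 fold changes of -0.17 and -0.12, and Syt11 of -0.15 and -0.12, in BALB/c and B10.D2. BALB/c libraries held Syt11 at 792 to 883 CPM with a median of 832 CPM in sham and at 789, 698, 740.3 and 802 CPM in SNI, with overlap. The values of Syt11 in B10.D2 were 842, 802, 793, 784 and 810.4 CPM in sham and 715, 729, 694, 799 and 736 CPM in SNI, also with overlap. 

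Higher in BALB/c were Stx5a, a SNARE between endoplasmic reticulum and Golgi, and Syt4. Stx5a was at 56.5 to 60.5 CPM with a median of 59.5 CPM in BALB/c sham and at 65.5, 66.1, 65.3 and 65.4 CPM in BALB/c SNI, a change of 10.8% (log2 0.15 ± 0.04 (SE), adjusted p = 0.00855). In B10.D2 it was at 54.0, 53.3, 56.7, 58.7 and 57.8 CPM in sham and at 57.8, 59.4, 59.4, 60.7 and 59.8 CPM in SNI (log2 0.08 ± 0.03 (SE), adjusted p = 0.23). Syt4 was at 315 to 401 CPM with a median of 338 CPM in BALB/c sham and at 389, 391, 424 and 412 CPM in BALB/c SNI, overlapping (log2 0.22 ± 0.06 (SE), adjusted p = 0.026). B10.D2 libraries held Syt4 at 372, 401, 385, 397 and 424 CPM in sham and at 384, 438, 406, 417 and 382 CPM in SNI, with overlap (log2 0.04 ± 0.06 (SE), adjusted p = 0.835). With 1 library left out at a time, calls were lost for Syt4 in 6 of 20 fits, for Syt11 in 5, for Stx18 in 3 and for Stx5a in 1 (without BALB/c SNI 64). Those for Cplx1 and for all 7 members called in both strains passed in all 20 fits.

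No member was called for a difference between the strains in its change after SNI. The interaction term called 0 of the 53 members in edgeR and 0 in DESeq2, with 3 at an unadjusted p under 0.05 in edgeR (Syt4, Sv2a and Syn3), and 0.0243% of all features were called. For the 6 shared lower members the interaction lay between 0.01 (Syt2) and 0.13 (Vamp1) on the log2 scale, with standard errors from 0.06 to 0.14, and for Syt17 it was 0.03 ± 0.26 (SE). The loss of the call of Cplx1, Stx18, Syt11, Stx5a or Syt4 in B10.D2 was therefore not shown to be a difference between the strains.

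By role, changes in mouse were spread thinly over the families. Of 8 plasma membrane SNAREs tested only Snap25 was called, and of 6 vesicle SNAREs only Vamp1. Among fast calcium sensors Syt2 was called and Syt1 and Syt9 were not, with log2 fold changes of -0.05 and -0.01 in BALB/c. The 3 synapsins were not called in either strain and had log2 fold changes between -0.14 and -0.05 in BALB/c and between -0.03 and 0.31 in B10.D2. Stx1a, a syntaxin of the synaptic plasma membrane, was not called, and neither were Sv2a and Sv2c.

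Ratios between related genes were also taken within each library, which removes the scaling of the library. Snap23 is the relative of Snap25 that most cells express. Snap25 was 38.8 to 57.7 times Snap23 in BALB/c sham libraries and 25.3 to 34.8 times in BALB/c SNI libraries. In B10.D2 the ratio was 39.9 to 54.3 in sham and 24.5 to 37.0 in SNI, so the groups were apart in both strains, with a mean shift of -0.67 and -0.68 on the log2 scale. Snap23, which was not called, averaged 21.3 CPM in BALB/c sham and 23.8 CPM in SNI, and 21.5 and 25.2 CPM in B10.D2. The shift of the ratio is therefore not that of Snap25 alone. Vamp2 was 0.165 times Vamp1 in sham of both strains (geometric means), and 0.247 times in BALB/c SNI and 0.252 times in B10.D2 SNI. The libraries overlapped in BALB/c and did not in B10.D2. The ratio Syt1 to Syt2 went from a geometric mean of 0.543 to 0.729 with SNI in BALB/c and from 0.651 to 0.981 in B10.D2, with overlap in both strains. Sv2a to Sv2b went from a geometric mean of 0.0973 to 0.115 in BALB/c, with overlap, and from 0.108 to 0.141 in B10.D2, without overlap. Syn1 to Syn2 and Cplx1 to Cplx2 shifted by at most 0.11 on the log2 scale, with overlap.

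**Figure D3:**
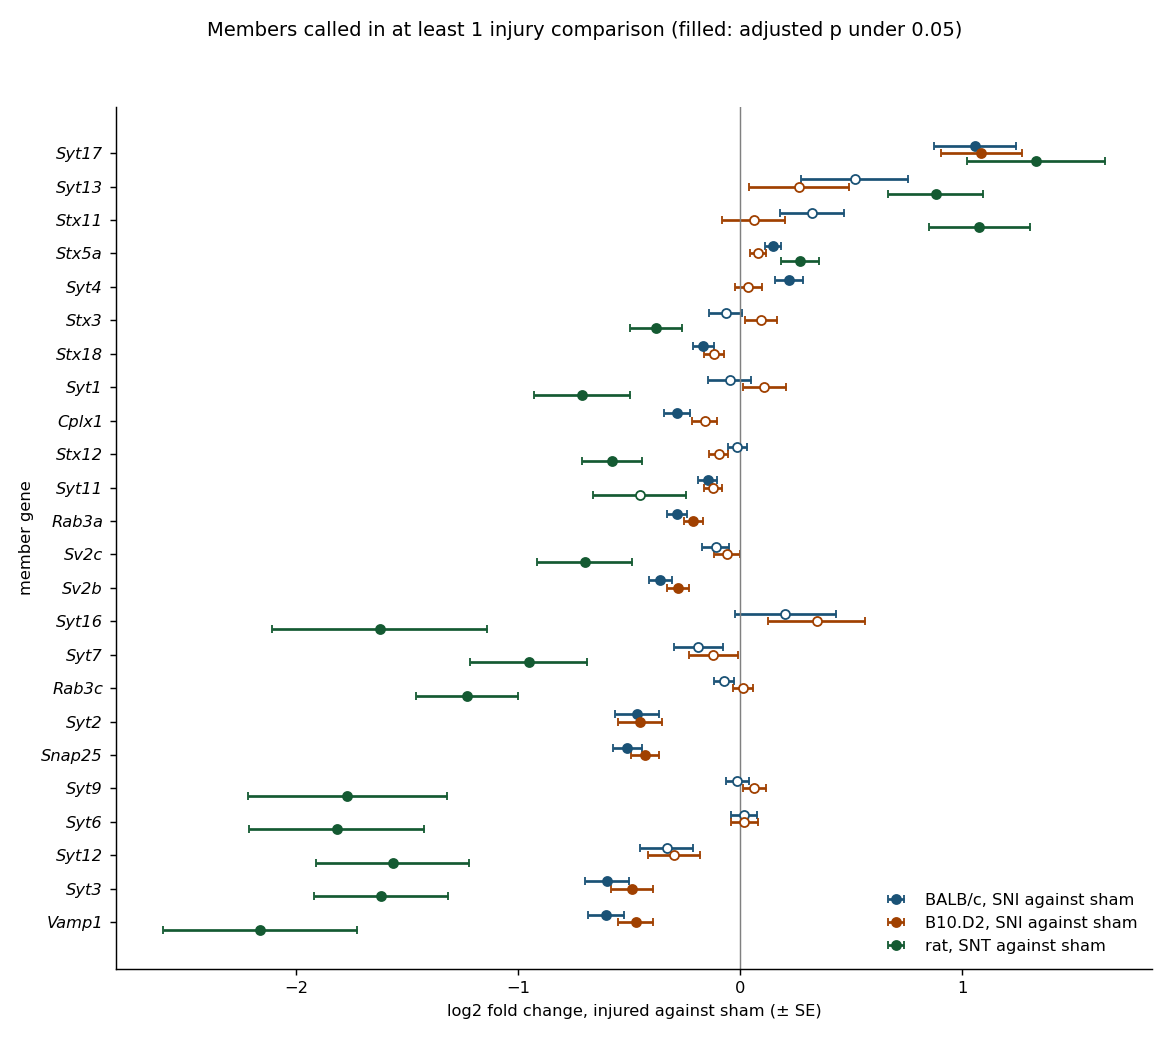
Log2 fold changes of injured against sham for the 24 members called in at least 1 injury comparison, with ± SE. Filled points are called at an adjusted p under 0.05, a missing point was not tested or not in that table, and Vamp1, Syt3 and Syt17 are filled in all 3 comparisons.

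In rat ganglia after SNT the log2 fold changes of members ran from -2.16 to 1.33. Of the 54 members 33 were tested, 21 did not pass the filter on low counts, and 16 were called, 4 as higher and 12 as lower. Of all rat features 27.4% were called, 12.3% as higher and 15.1% as lower. The median log2 fold change over the members tested was -0.25, against 0.00 over all features. Without rat sham 4 and rat SNT 1, 23 of 34 members tested were called, 6 as higher and 17 as lower, and 43.9% of all features were called. These 2 libraries lay nearest to the other group, so leaving them out widens the differences by construction. Leaving out 1 library at a time gave 8 to 18 calls. There were 8 without rat sham 3 or without rat SNT 2, when 10.6% and 11.6% of all features were called, and 10 without rat sham 2, rat SNT 3 or rat SNT 4 (13.8% to 15.9% of all features). The 18 calls came without rat SNT 1, when 36.1% of all features were called. The calls of Vamp1, Syt3, Syt6, Syt12, Rab3c, Stx11 and Syt17 passed in all 8 of these fits.

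Vamp1 was also the member with the largest fall in rat. Sham libraries 1 to 4 held 1452, 1751, 1564 and 907 CPM and SNT libraries 1 to 4 held 668, 164, 187 and 246 CPM. The groups did not overlap, and rat sham 4 and rat SNT 1 were the lowest and the highest of their groups. The log2 fold change was -2.16 ± 0.44 (SE) (adjusted p = 0.0123), and -2.98 without these 2 libraries.

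Syt3 was the other member lower in all 3 comparisons. It was at 71.03, 121, 73.1 and 56.9 CPM in sham and at 43.4, 19.6, 20.7 and 21.2 CPM in SNT, without overlap. The log2 fold change was -1.62 ± 0.30 (SE) (adjusted p = 0.0114), and -2.09 without rat sham 4 and rat SNT 1. Syt17 was higher, at 2.49, 1.10, 1.78 and 1.11 CPM in sham and 2.66, 5.01, 3.78 and 4.65 CPM in SNT. Its log2 fold change was 1.33 ± 0.31 (SE) (adjusted p = 0.0159), the largest rise of a called rat member. The lowest SNT library, 2.66 CPM, was just above the highest sham library, 2.49 CPM. Stx5, the rat name of Stx5a, was at 54.5, 53.4, 55.8 and 59.9 CPM in sham and 63.99, 70.6, 68.1 and 66.5 CPM in SNT. Its log2 fold change was 0.27 ± 0.09 (SE) (adjusted p = 0.042), but its call was lost in 6 of the 8 fits with 1 library left out.

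The other 12 members called in rat were called in neither mouse strain, 10 of them lower. Most are synaptotagmins. Syt6, of the same subfamily as Syt3, was at 42.4, 58.8, 43.2 and 30.0 CPM in sham and 25.2, 8.50, 7.06 and 8.78 CPM in SNT (log2 -1.82 ± 0.39 (SE), adjusted p = 0.0135). Its log2 fold changes in mouse were 0.02 (BALB/c) and 0.02 (B10.D2). Syt9, a fast calcium sensor, was at 35.1, 57.5, 41.2 and 27.5 CPM in sham and 25.3, 6.70, 5.34 and 10.2 CPM in SNT (log2 -1.77 ± 0.45 (SE), adjusted p = 0.0202), and its call was lost in 4 of 8 fits with 1 library left out. Syt16 (-1.63), Syt12 (-1.57), Syt7 (-0.95) and Syt1 (-0.71) were lower too, as log2 fold changes, and of these only the call of Syt12 passed with every library left out in turn. Syt16 was scarce, at 1.89 to 2.75 CPM in sham and 0.163 to 1.52 CPM in SNT. 

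Rab3c, a Rab3 GTPase, was at 127, 180.3, 146 and 101 CPM in rat sham and 85.1, 44.7, 48.1 and 58.2 CPM in SNT (log2 -1.23 ± 0.23 (SE), adjusted p = 0.0114). The vesicle glycoprotein Sv2c (-0.70), the endosomal SNARE Stx12 (-0.58) and Stx3 (-0.38), a SNARE of apical and ribbon-type release, were lower by log2 fold change. With 1 library left out, the call was lost in 7 of 8 fits for Stx3, in 5 for Sv2c and in 1 for Stx12. Stx3 was also no longer called without rat sham 4 and rat SNT 1 together. Higher were Stx11, a syntaxin known from secretion by immune cells, and Syt13. Stx11 was at 20.5, 17.5, 19.5 and 37.7 CPM in sham and 42.5, 55.4, 50.9 and 52.2 CPM in SNT (log2 1.08 ± 0.23 (SE), adjusted p = 0.0132), with rat sham 4 nearest to the SNT libraries. Syt13, which does not bind calcium, was at 7.46, 7.14, 6.05 and 10.7 CPM in sham and 16.5, 12.6, 11.2 and 17.5 CPM in SNT (log2 0.88 ± 0.21 (SE), adjusted p = 0.0177). Its call was lost without rat sham 3.

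Not called in rat were the 3 synapsins, with log2 fold changes of -0.33, -0.25 and -0.17, and Sv2a at 0.43. The endosomal or ubiquitous SNAREs Vamp3, Stx16 and Stx17 lay between -0.05 and 0.16. Of the 12 members called in a mouse strain, 5 are listed at 0 in rat and 2 are not rat symbols in the table. The other 5 were tested, and 4 of them were called, as in mouse. The exception was Syt11, at -0.45 ± 0.21 (SE) with an adjusted p of 0.127.

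**Figure D4:**
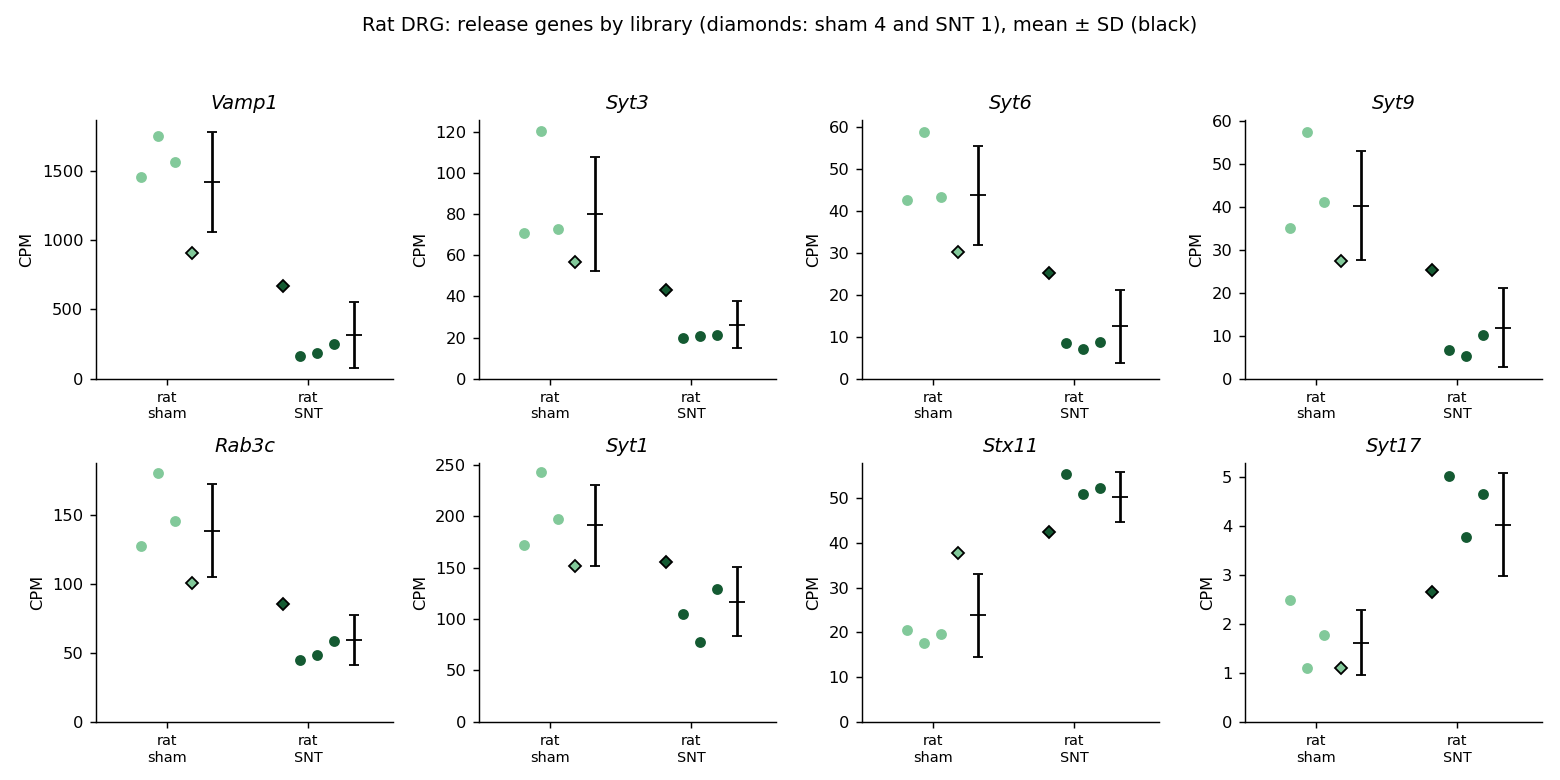
CPM of 8 members in each rat library. Points are libraries (diamonds are rat sham 4 and rat SNT 1), the black bar is the group mean ± SD (n = 4 each), and Vamp1 falls from 907 to 1751 CPM in sham to 164 to 668 CPM in SNT while Stx11 and Syt17 are higher in SNT.

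Markers of cell types were read beside these changes. The share of all features called as higher and as lower was 4.82% and 4.87% in BALB/c. It was 2.1% and 2.48% in B10.D2, and 12.3% and 15.1% in rat. In mouse 2 of 12 neuron markers were lower in each strain, among them Nefh (log2 -0.70 in BALB/c, -0.50 in B10.D2), and the median over the 12 was -0.12 and -0.13. Nefh encodes the heavy neurofilament of large myelinated neurons. In BALB/c the summed neuron markers were 9165 to 10298 CPM with sham surgery and 8555 to 9683 CPM with SNI. In B10.D2 they were 9073 to 10318 CPM with sham surgery and 8335 to 9985 CPM with SNI. In rat 4 of the 8 neuron markers tested were lower, with a median of -1.02, and their sum was 6547 to 9612 CPM in sham and 4038 to 7953 CPM in SNT. Macrophage markers were called as higher for 3 of 8 in BALB/c, 0 of 8 in B10.D2 and 1 of the 2 tested in rat. Schwann cell markers were higher for 3 of the 4 tested in rat. Of 8 Schwann cell markers in mouse, 1 was higher and 1 lower in BALB/c, and 1 was lower in B10.D2. Satellite glia markers had 0 of 6 called in either strain, and 1 of the 3 tested was lower in rat. Summed T cell markers were 33.7 to 86.6 CPM in rat sham and 101 to 153 CPM in SNT, nearly all of it Cd4 (32.3 to 74.1 CPM and 94.5 to 141 CPM), a gene that rat macrophages also express. Of the T cell receptor genes, Cd3e was at 0.142 to 0.782 CPM in rat sham and 1.39 to 2.06 CPM in SNT, without overlap. Cd3d was at 0.142 to 0.326 CPM and 0.443 to 1.14 CPM, also without overlap. Cd3g was at 0.183 to 1.43 CPM and 0.759 to 2.17 CPM, with overlap. T cell markers were called as higher for 2 of the 4 tested in rat and 0 of 5 in either mouse strain. In bulk ganglia fewer cells of a type and less RNA per cell cannot be told apart, and the part of these markers in the members' changes was not tested.

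Known injury genes rose in both species. Of 9 injury markers tested in mouse, 9 were higher after SNI in BALB/c, 8 in B10.D2, and rat had 6 of 7 higher. The summed injury markers were 739 to 873 CPM in BALB/c SNI and 337 to 653 CPM in B10.D2 SNI. Every one of these SNI libraries lay above the sham libraries of both strains, which held 211 to 277 CPM. In rat the sum was 305 to 775 CPM in sham and 1076 to 1590 CPM in SNT.

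Other genes of the release pathway were followed list by list. For every list the share of all features called as lower was 4.87% in BALB/c, 2.48% in B10.D2 and 15.1% in rat. The share called as higher was 4.82%, 2.1% and 12.3%. Of 33 docking and priming genes tested, 8 were lower and 1 higher in BALB/c, and 4 were lower and none higher in B10.D2. The largest called falls were Pclo, a scaffold of the active zone, in BALB/c (-0.29) and Rab27a, a GTPase of secretory granules, in B10.D2 (-0.26), and the rise was Rims4 (0.46), a short member of the RIM family. Nsf, the ATPase that takes SNARE bundles apart, and Cadps, which primes dense core vesicles, were lower in both strains, with log2 fold changes of -0.24 and -0.16 for Nsf and -0.22 and -0.16 for Cadps. In rat 9 of 21 were lower and none higher, with Doc2a, a calcium sensor of spontaneous release, at -3.16. The medians were -0.13 in BALB/c, -0.07 in B10.D2 and -0.42 in rat.

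Of 17 genes of the vesicle membrane and transmitter loading, 3 were lower in BALB/c, and 2 lower and 1 higher in B10.D2. Slc17a7, a vesicular glutamate transporter, fell the most (-0.38 and -0.40). Slc17a8, another glutamate transporter, was the gene that was higher in B10.D2 (0.33), and it was the gene with the largest fall in rat (-3.03). In rat 5 of 9 were lower and 1 was higher, Slc18a2, the vesicular monoamine transporter (1.16). Dense core vesicle genes were lower for 3 of 12 in BALB/c and 1 of 12 in B10.D2, in both led by Chga, the granin chromogranin A (-0.32 and -0.31). In rat 5 of 10 were lower, led by Scg2 (-2.20), and Ptprn, a membrane protein of the granule, was higher (0.78). Of the vesicle endocytosis genes 2 of 15 were lower in BALB/c (largest Pacsin1, -0.29), 1 of 15 in B10.D2 (Amph, -0.18), and 1 lower (Sh3gl2, -1.35) and 1 higher (Ston2, 0.91) of 8 in rat.

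Without injury, the strains differed in 13 of the 53 members, 9 higher and 4 lower in B10.D2 sham than in BALB/c sham. Of all features 21.6% were called, 11.5% as higher and 10% as lower, and the share of the members tested, 24.5%, was close to that. Without B10.D2 sham 88 the count was 8, with 18.3% of all features called, and with any other library left out it was at most 14. Rab3b (ENSMUSG00000003411, chromosome 4, 108879063 to 108943324, plus strand of mm10) showed the largest difference of a called member. It was at 2.78 to 6.42 CPM with a median of 3.82 CPM in BALB/c sham and at 7.75, 7.45, 11.1, 9.90 and 10.8 CPM in B10.D2 sham, without overlap, 2.24-fold (log2 1.16 ± 0.19 (SE), adjusted p = 0.000116). In SNI it was at 3.79, 3.49, 5.003 and 5.93 CPM in BALB/c and 10.3, 12.2, 9.26, 11.9 and 9.44 CPM in B10.D2.

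Stx3 was the second member higher in B10.D2 without overlap, at 21.3 to 24.3 CPM against 14.7 to 16.9 CPM in BALB/c (log2 0.52 ± 0.07 (SE), adjusted p = 8.0e-06). Vamp5, a vesicle SNARE of muscle and other peripheral tissue, was lower in B10.D2, at 6.75, 6.45, 5.90, 6.31 and 6.45 CPM against 7.07 to 10.2 CPM with a median of 9.27 CPM in BALB/c (log2 -0.49 ± 0.09 (SE), adjusted p = 0.00023). Stx2 and Rab3c were lower in B10.D2 too, with log2 differences of -0.26 and -0.20 and no overlap. Snap25, Vamp1, Syt2, Syt3, Sv2b, Rab3a and Syt17 were not called between the strains in sham. Cplx1 and Stx7 were called, but lost their call in 12 and 14 of 20 fits with 1 library left out. In the same comparison 4 of 8 macrophage markers and 4 of 5 T cell markers tested were higher in B10.D2, and their part in the strain differences was not tested.

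**Figure D5:**
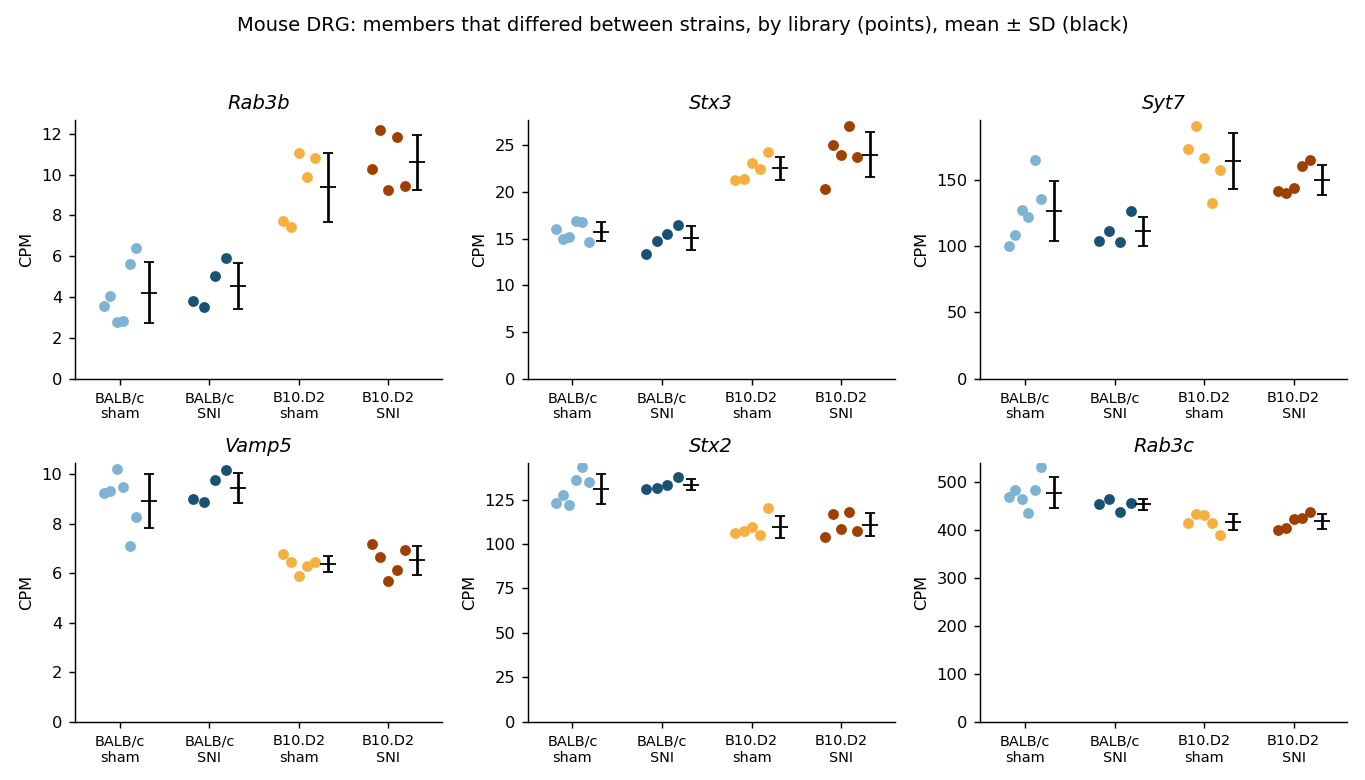
CPM of 6 members that differed between the strains, in each mouse library, with the group mean ± SD in black. Rab3b, Stx3 and Syt7 are higher in B10.D2 and Vamp5, Stx2 and Rab3c lower, and for Rab3b the 5 B10.D2 sham libraries (7.45 to 11.1 CPM) lie above the 6 BALB/c sham libraries (2.78 to 6.42 CPM).

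Sex was a term of the mouse model. No member was called between males and females in edgeR or in DESeq2, 11 of 53 were at an unadjusted p under 0.05 in edgeR, and 0.243% of all features were called.

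LncRNAs assembled by the study lie at several members. Within 10 kb of a member or overlapping it there were 17 of them at 14 members, in 18 pairs, of which 9 were on the opposite strand and 4 of those shared exon bases with the member. The 4 were at Stx5a (LncRNA7645), Sv2c (LncRNA6591), Syn3 (LncRNA1999) and Syt11 (LncRNA554). Of 13 that passed the filter, none was called after SNI in either strain in edgeR, with 1 at an unadjusted p under 0.05 in BALB/c against 0 in B10.D2. DESeq2 held values for all 17 and called none, and how many of them had an adjusted p was not counted. LncRNA554 (chromosome 3, 88713981 to 88771494, plus strand) averaged 15.4 ± 1.04 CPM (SD, n = 6) in BALB/c sham and 11.1 ± 0.655 CPM (SD, n = 5) in B10.D2 sham. The log2 difference was -0.48 ± 0.06 (SE) with an adjusted p of 2.9e-06, while that of Syt11 was -0.06. LncRNA3417 overlaps Stx3 on the opposite strand without sharing exon bases (chromosome 19, 11818216 to 11847016, plus strand), and it was higher in B10.D2 sham by 0.75 ± 0.20 (SE) with an adjusted p of 0.00899, as was Stx3. This LncRNA was scarce, with means of 0.358 CPM in BALB/c sham and 0.607 CPM in B10.D2 sham. LncRNA2601, on the strand of Sv2c, was higher in B10.D2 sham by 0.37 ± 0.07 (SE), while Sv2c differed by 0.00.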

How the data were processed

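RNA of DRG was sequenced in 20 mouse libraries (per the labels, BALB/c and B10.D2 with SNI or sham surgery) and 8 rat libraries (SNT or sham). As the study's methods state, libraries were strand-specific, and the authors aligned reads with STAR and counted read pairs with HTSeq (intersection-nonempty, so pairs that fit more than 1 gene are left out) over Ensembl GRCm38.87 in mouse and Rnor_6.0.90 in rat with their assembled LncRNAs. The submitters' processing notes also name SAMtools and DESeq2, without versions. The deposited tables hold raw counts per feature. The deposited result tables of the authors hold symbols, which were used, and a mean normalized signal, log2 fold change with its standard error, Wald score, p-value and adjusted p-value, which were not. The deposited annotation of assembled LncRNAs gave their positions, and splice junction files were not used. Mouse samples 59 and 66 of the labels were not analysed here.

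The count models were fitted in edgeR 4.0.16 (quasi-likelihood F test, R 4.3.3) after TMM normalization and filterByExpr, two-sided, with Benjamini-Hochberg adjustment over all features tested. The mouse model held sex, strain, surgery and their interaction over all 20 libraries, and the rat model surgery alone. A gene is called at an adjusted p under 0.05. Standard errors were taken as |log2 fold change| over the root of F. CPM are counts per M (mega) of the TMM-scaled total. Exon lengths and mouse positions came from GENCODE M21 (mm10), which held all 57 mouse members, and promoters from RefSeq on GRCm38.p6. On simulated data with 200 features changed by a log2 fold of 1, the test recovered 91.5% in BALB/c, 94.5% in B10.D2 and 68.5% in rat, with 4, 12 and 6 unchanged features called. Alternatives were DESeq2 1.42.0, RLE factors, other count filters, annotated genes alone, no sex term, each strain alone, each library left out, the 2 intermediate rat libraries left out and the rat title number as a block. The members, the lists and the markers were chosen with earlier results of these data known. Values in each library are given for members called in both strains, for the interaction, or in rat and a strain, for the largest called rise and fall in each comparison and for the 5 highest per length. Rat values by library of Syt6, Syt9, Rab3c, Stx11 and Syt13, and the plotted Syt1, Stx2 and Syt7, were chosen after their values were seen. So was the rat range of Syt16. Results for 1 member and 1 neuron marker are not reported here.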

Additional observations from a re-analysis of the deposited data

Results flagged for a closer look

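In 66 groups of 4 to 6 libraries, over the 13 members named with values, 5 groups held a library whose gap to its nearest neighbour was large for the range of the group (Dixon's test at 95%). Chance gives about 1 such group in 20.

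Rat SNT 1 was apart for Vamp1, at 668 CPM against 164 to 246 CPM in the other 3 SNT libraries, and for Syt3, at 43.4 CPM against 19.6 to 21.2 CPM. It is also the SNT library nearest to sham on the first principal component. It held the highest SNT value and rat sham 4 the lowest sham value of both genes, so leaving both libraries out widens the fall by construction, to log2 fold changes of -2.98 and -2.09.

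BALB/c SNI 49 was apart for Vamp1, at 318 CPM against 224 to 236.96 CPM in the other BALB/c SNI libraries. BALB/c SNI 64 was apart for Syt17, at 4.44 CPM against 2.78 to 2.98 CPM. BALB/c sham 55 was apart for Rab3a, at 181 CPM against 195 to 202 CPM in the other BALB/c sham libraries. The calls of these 3 genes in BALB/c did not change when any of the 20 libraries was left out.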

How the results depend on the processing

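No called member changed its direction under any alternative. The rat count of 16 called members was 10 with the replicate block, under which 17.4% of all features were called against 27.4% without it. With 1 rat library left out it was 8 to 18, and it was 8 without rat sham 3 or rat SNT 2, and 10 without rat sham 2, rat SNT 3 or rat SNT 4. These fits hold fewer libraries. The 13 members called between the strains in sham became 8 to 14 with 1 library left out. There were 8 without B10.D2 sham 88, when 18.3% of all features were called. With 1 library left out, BALB/c had 9 to 14 calls and B10.D2 7 to 8. In these fits 6.56% to 10.7% of all features were called in BALB/c and 2.64% to 4.84% in B10.D2. DESeq2 called 13 members in BALB/c, 8 in B10.D2, 17 in rat and 14 between the strains in sham. The shares of all features called by DESeq2 were 11.9%, 6.92%, 26.1% and 17.5%. The interaction and the sex comparison had 0 calls throughout.

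Rat sham and SNT libraries share a number in their titles. The deviations of same-numbered libraries correlated at 0.05, -0.24, -0.09 and -0.07, and no sham library correlated best with its own number. No label says what the number marks, and so few pairs cannot decide whether it marks a shared batch. Under the block the calls of Syt17 (1.35, adjusted p = 0.0566), Syt1, Syt7, Syt16, Sv2c, Stx3 and Stx5 were not made. Mouse title numbers are unique, so no block was fitted there. Over the 48 log2 fold changes of called members, 980 alternatives kept the call and 110 did not. The level of Snap25 became 206 and that of Rab3a 121 CPM per kb with the longest transcript, and a pseudocount of 0.5 moved no ratio between related genes by more than the spread between libraries. Of the 54 rat members 21 did not pass the count filter, 18 of them listed at 0, so a change of theirs was not detectable in this table.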
